A study of Gallus gallus with 16 samples.

Results

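Places in the genome that carry acetylated lysine 27 of histone H3 (H3K27ac) were compared with places that carry trimethylated lysine 4 of the same histone (H3K4me3), in fiber cells of chick lenses kept at 1% oxygen. The members are the peaks, intervals of enriched signal, that the deposited table lists for either mark at 1% oxygen, each interval counted once per mark. These were 45734 H3K27ac peaks and 24987 H3K4me3 peaks, 70721 of the 108520 peaks in the table's 4 lists. The study used CUT&RUN, in which an antibody against a chromatin mark directs a nuclease to release the DNA around it. Whole lenses of White Leghorn embryos at embryonic day 13 were cultured in Medium 199 with 10% fetal bovine serum for 2 h at 1% oxygen (hypoxia) or 21% oxygen (normoxia), with no genetic change and no drug in either group. The fiber cell mass was then dissected from the epithelium. Each replicate pooled 10 to 15 lenses. The extraction text gives 0 h and 2 h of hypoxia as the times of dissection, and the labels thus differ on whether normoxia lenses were also cultured for 2 h. Per condition there were 2 H3K27ac libraries, 3 H3K4me3 libraries and 3 libraries of the nonspecific antibody IgG, which were not analysed here.

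The table holds 1 list per mark and condition, with no value per library, no score and no p-value. No comparison here could therefore be set against the spread between replicates, and no test was run. The intervals given are 95% Wilson intervals, which reflect only how many peaks or genes were counted. Peak width is a length and not a strength of signal. Read depth is unknown for both marks, and a difference between the marks in list length or width cannot be told apart from a difference in depth, antibody or calling threshold.

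H3K4me3 is deposited by SET1/MLL-type methyltransferases at transcription start sites (TSSs) of active and of poised genes, and its domains can extend far over genes that specify a cell's identity. H3K27ac is written chiefly by the acetyltransferases p300 and CBP and marks active promoters and also active enhancers, which as a rule lack H3K4me3. Their joint presence is thus a usual sign of an active promoter, H3K27ac alone of an enhancer, and H3K4me3 alone of a promoter that is weakly used or held ready. Lens fiber cells are elongated cells that fill themselves with crystallins and then remove their nuclei and organelles, and they live far from any blood supply, where oxygen is low.

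Most H3K27ac peaks at 1% oxygen lay outside H3K4me3, while slightly more H3K4me3 peaks met H3K27ac than did not. Of the 45734 H3K27ac peaks, 16271 overlapped an H3K4me3 peak by at least 1 bp, which was 35.6% (35.1 to 36.0), and 29463 did not. Of the 24987 H3K4me3 peaks, 13224 overlapped H3K27ac, 52.9% (52.3 to 53.5), and 11763 did not. The order of these shares was not the same with fewer, wider H3K27ac peaks. With the H3K27ac list reduced to its widest peaks, as many as the H3K4me3 list holds, 47.3% of H3K27ac peaks and 41.8% of H3K4me3 peaks were overlapped, the reverse order. By length, 14.0 Mb carried both marks, which was 37.9% of the 36.9 Mb under H3K27ac and 33.0% of the 42.4 Mb under H3K4me3. At 21% oxygen, where the H3K27ac list was shorter, the shares had the other order: 50.3% of 15511 H3K27ac peaks and 29.6% of 22288 H3K4me3 peaks were overlapped, and 5.05 Mb carried both marks.

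Where the marks met, the most frequent layout was an H3K27ac peak wholly within an H3K4me3 peak. Among 16748 overlapping pairs at 1% oxygen the H3K27ac peak was wholly inside the H3K4me3 peak in 51.0%, the H3K4me3 peak was inside the H3K27ac peak in 12.8%, and the edges crossed in 36.3%. A single H3K27ac peak was found in 81.4% of the 13224 overlapped H3K4me3 peaks, 13.8% held 2, and 4.75% held 3 or more, up to 14. The acetylated part of an overlapped H3K4me3 promoter peak was a minority of it in most cases, with a median of 40.2% of its length (quartiles 22.7% and 61.8%). In the normoxia lists that median was 24.1%.

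Position set the overlapped and the other H3K27ac peaks far apart. Among the 16271 H3K27ac peaks with H3K4me3, 42.0% were annotated within 1 kb of a TSS, 21.2% from 1 to 5 kb, 17.7% in introns and 13.4% in distal intergenic sequence. Among the 29463 without H3K4me3 only 3.71% were within 1 kb of a TSS and 16.0% from 1 to 5 kb, and introns held 38.3% and distal intergenic sequence 30.4%. Most of these 29463 peaks therefore lay in introns or distal intergenic sequence, where enhancers are looked for, although no enhancer assay was part of the data. Read the other way, 86.2% of the 7920 H3K27ac peaks within 1 kb of a TSS overlapped H3K4me3, against 42.3% from 1 to 5 kb, 20.3% in introns and 19.5% in distal intergenic sequence.

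H3K4me3 peaks differed less by position. Of those with H3K27ac, 49.4% lay within 1 kb of a TSS, and introns held 19.1% and distal intergenic sequence 13.9%. Of those without it, 24.3% lay at such promoters, and the other shares were 27.1% and 23.3%. Of the 9397 H3K4me3 peaks within 1 kb of a TSS, 69.6% overlapped H3K27ac, and away from promoters the share was still 44.3% in introns and 40.1% in distal intergenic sequence. H3K4me3 outside promoters was thus overlapped by H3K27ac in somewhat less than 1 of 2 cases, while H3K27ac outside promoters mostly had no H3K4me3.

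**Figure D1:**
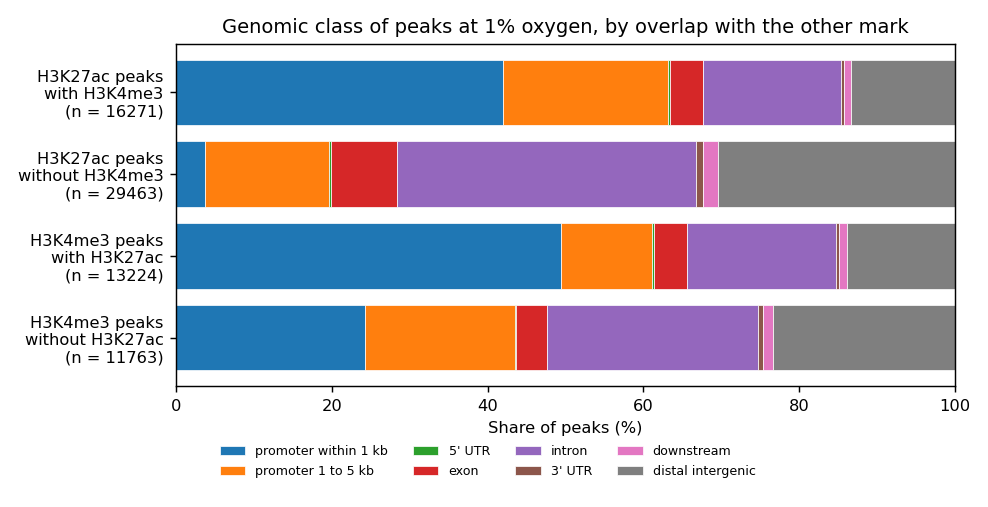
Share of peaks (%) in each genomic class at 1% oxygen, for H3K27ac and H3K4me3 peaks that do or do not overlap the other mark by at least 1 bp. The class within 1 kb of a TSS takes 42.0% and 49.4% of the overlapped peaks, but 3.71% of H3K27ac peaks without H3K4me3 and 24.3% of H3K4me3 peaks without H3K27ac.

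Peaks that carried both marks were wider than peaks with 1 of them, for either mark. H3K27ac peaks had a median width of 865 bp with H3K4me3 and 450 bp without. H3K4me3 peaks had a median width of 1734 bp with H3K27ac and 502 bp without. The difference was also seen among promoter peaks alone, where the medians were 911 and 494 bp for H3K27ac and 2665 and 1230.5 bp for H3K4me3. A wide peak has more bases in which an overlap can fall, so the share of bases was computed beside the share of peaks. Promoter H3K4me3 peaks were put into 10 classes of equal number by width. From the narrowest class (median 393 bp) to the widest (median 7349.5 bp) the share of peaks overlapped went from 23.9% to 97.1%. The share of their bases under H3K27ac went from 16.9% in the narrowest class to 35.0% in the sixth and lay between 33.9% and 35.9% from there to the widest. The widest promoter domains were therefore nearly always touched by H3K27ac, but no larger a fraction of them was covered than of domains of middle width.

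For H3K27ac peaks not annotated within 1 kb of a TSS both measures went up over the whole range of widths. These include the 8153 peaks annotated from 1 to 5 kb, of which 42.3% overlapped H3K4me3. From the narrowest to the widest class the share of peaks that overlapped H3K4me3 went from 8.57% to 62.8%, and the share of their bases from 7.74% to 37.1%. Most peaks of the widest class thus overlapped H3K4me3 by at least 1 bp, with a smaller share of their bases under it. At promoters the range for H3K27ac was narrower, 67.0% to 97.7%. In the normoxia lists the share of promoter H3K4me3 peaks overlapped went from 11.9% to 75.5% over the width classes, and the share of bases lay between 8.75% and 15.2%.

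**Figure D2:**
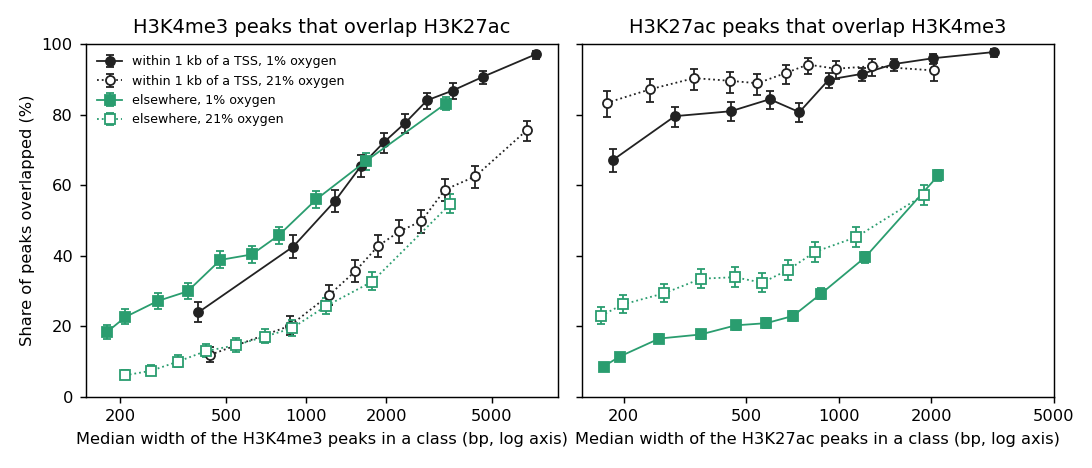
Share of peaks (%) that overlap the other mark, in 10 classes of equal number by width, against the median width of the class (bp, log axis); bars are 95% Wilson intervals, filled points are 1% oxygen and open points 21% oxygen, circles are peaks within 1 kb of a TSS and squares are all others. At 1% oxygen H3K4me3 within 1 kb of a TSS goes from 23.9% to 97.1% and all other H3K27ac from 8.57% to 62.8%.

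H3K27ac peaks without H3K4me3 were mostly far from it. The median gap to the nearest H3K4me3 peak was 9.40 kb (quartiles 2.82 and 29.1 kb), 48.5% lay more than 10 kb away, and the median was 22.0 kb for distal intergenic peaks. H3K4me3 peaks without H3K27ac lay closer to it, with a median gap of 3.71 kb (5.46 kb for promoter peaks). The H3K27ac list is the longer, which by itself places its peaks closer to any given point.

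Peaks with both marks were also those that the normoxia list of the same mark more often held. Of H3K27ac peaks at 1% oxygen, 37.6% (36.9 to 38.4) of those with H3K4me3 overlapped a normoxia H3K27ac peak, against 9.23% (8.90 to 9.56) of those without. The same order was seen within 1 kb of a TSS (42.8% and 10.3%) and elsewhere (33.8% and 9.18%). Of H3K4me3 peaks, 73.7% of those with H3K27ac and 42.1% of those without overlapped a normoxia H3K4me3 peak, and at promoters 96.4% and 82.7%. The overlapped peaks are the wider ones, and the part of width in this was not tested.

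At the level of genes, a mark was given to a gene when the table placed a peak of it within 1000 bp of a TSS of that gene, and such a peak is called a promoter peak. Of 14100 gene IDs in the table, 10530 (74.7%) had a promoter peak of either mark at 1% oxygen. Both marks were present at 6541 genes (62.1%), H3K4me3 alone at 3396 (32.3%) and H3K27ac alone at 593 (5.63%). Of the genes with promoter H3K27ac 91.7% also had promoter H3K4me3, and of the genes with promoter H3K4me3 65.8% also had promoter H3K27ac. At 21% oxygen the same rule gave 3726 of 9905 genes with both marks (37.6%), 5992 with H3K4me3 alone (60.5%) and 187 with H3K27ac alone (1.89%).

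Genes with both marks had wide H3K4me3 over the start and a narrower H3K27ac peak beside or over it. The widest promoter peak of a gene had a median of 2658 bp for H3K4me3 and 1001 bp for H3K27ac. H3K4me3 was the wider in 5804 of 6541 genes (88.7%), with a median ratio of 2.50. Across these genes the widths of the marks were weakly related (Spearman rho 0.28 over 6541 genes of the same lists, which are not independent replicates). The promoter peak overlapped an annotated start in 93.1% of these genes for H3K4me3 and in 50.0% for H3K27ac. Where H3K27ac missed the start, it lay downstream of it, inside the gene, in 65.8% of 3270 genes. The promoter peaks of the marks overlapped each other at 6315 of the 6541 genes (96.5%), lay apart by up to 1000 bp at 152, and lay further apart at 74, as can happen in a gene with several starts.

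The genes of this class with the widest peaks, ranked by the smaller of the widths, were led by TRPM1, a cation channel known from melanocytes and retinal bipolar cells. TRPM1 had an H3K27ac peak of 12153 bp over its start (chromosome 10, 6122268 to 6134420, galGal6, as all positions here) within an H3K4me3 peak of 15090 bp, and H3K27ac covered 93.4% of the latter. TRABD had 10699 and 10287 bp of H3K27ac and H3K4me3, and NUDT4, a diphosphoinositol phosphatase, 9853 and 19747 bp. OSBPL2, an oxysterol-binding protein, had 9804 and 12392 bp, and C9H21orf2 had 9795 and 13245 bp. RALGDS, which activates the GTPase RAL, had 8289 and 9071 bp. CASP1, an inflammatory caspase, and MTMR4, a lipid phosphatase, share 1 peak of each mark, 7922 and 7537 bp wide. All 8 also had both marks at the promoter in the normoxia lists.

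**Figure D3:**
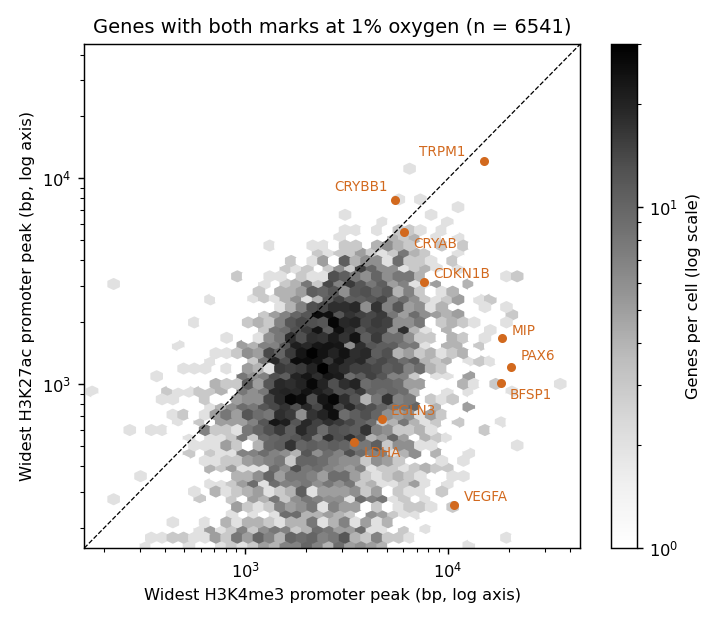
Width of the widest H3K27ac promoter peak against that of the widest H3K4me3 promoter peak (bp, both axes log) for the 6541 genes with both marks at 1% oxygen, as hexagons shaded by the number of genes; the dashed line marks equal widths and orange points are named genes. Most genes lie below the line, 5804 of 6541 having the wider H3K4me3 peak, with MIP, PAX6, BFSP1 and VEGFA far to its right and TRPM1 near it.

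The class with H3K4me3 alone held genes of 2 kinds. In 908 of its 3396 genes (26.7%) the H3K4me3 promoter peak did overlap an H3K27ac peak, which lay beyond 1000 bp of the start or was annotated to another gene. These had wide H3K4me3, with a median of 3523.5 bp. In the other 2488 genes no H3K27ac touched the promoter peak, and the median was 1375.5 bp. With overlap counted as presence, 7513 genes (71.3%) had both marks, 2488 (23.6%) H3K4me3 alone and 529 (5.02%) H3K27ac alone.

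The 8 widest genes of the class belonged to the first kind without exception. ANKIB1, a predicted ubiquitin ligase, had an H3K4me3 peak of 42807 bp (chromosome 2, 22511658 to 22554464) with 5 H3K27ac peaks over 11.2% of it. RAB40B, a small GTPase, had 39185 bp with 9 H3K27ac peaks over 13.0%. SOX2, a transcription factor of early lens and neural development, had 32256 bp with 7 H3K27ac peaks over 21.9%. INA, a neuronal intermediate filament protein, had 28930 bp, of which H3K27ac covered 1.76%. CCZ1, a factor of endosome maturation, and OCM, the calcium-binding oncomodulin, share a peak of 27713 bp, covered to 10.2%. RAPGEF6, a RAP GTPase activator, had 23980 bp covered to 4.06%, and PTPN21, a tyrosine phosphatase, 21590 bp covered to 16.2%. These very broad H3K4me3 domains thus had sparse H3K27ac inside them rather than none.

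Among the 2488 genes of this class whose H3K4me3 promoter peak met no H3K27ac at all, the widest peaks, chosen after their values were seen, were those of the nuclear receptor coactivator NCOA2 (11531 bp), the ubiquitin ligase ARIH1 (10146 bp) and the neural cell adhesion molecule CADM3 (9267 bp). They were followed by the stress-induced transcription factor ATF3 (7572 bp), the serum response cofactor ELK4 (7278 bp), SHISA9 (7004 bp), the corepressor BCOR (6864 bp) and the metal transporter SLC39A8 (6559 bp). ATF3 had no H3K27ac peak annotated to it anywhere, and BCOR had 17, all away from the promoter. In the normoxia lists 7 of these 8 genes had promoter H3K4me3 alone as well, and SHISA9 had both marks.

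Genes with H3K27ac alone at the promoter were few and had narrow peaks. Their widest H3K27ac promoter peak had a median of 562 bp, against 1001 bp in genes with both marks. It lay over an annotated start in 26.8% and upstream in 40.5%. An H3K4me3 peak was annotated somewhere to 47.9% of the 593 genes. Only 79.1% had a gene symbol of their own, against 96.1% of genes with both marks and 93.8% with H3K4me3 alone, and the part of gene annotation in this class was not tested. In the normoxia lists 77.6% of the 593 had no promoter peak of either mark and 10.1% had H3K27ac alone. By contrast 47.0% of the genes with both marks at 1% oxygen also had both at 21% oxygen, 50.0% had H3K4me3 alone there, and of the genes with H3K4me3 alone at 1% oxygen 70.6% had the same state.

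By width the class was led by KSR1, a scaffold of the RAF to ERK kinase cascade, with 7114 bp of H3K27ac over its start (chromosome 19, 9298490 to 9305603). Next came the polarity kinase MARK2 (4806 bp) and the amino acid transporter SLC38A1 (3597 bp). For these 3, for the transporter SLC6A20 (3451 bp) and for BTBD19 (3417 bp), an H3K4me3 peak overlapped the H3K27ac peak although none was placed within 1000 bp of the start. CRYAA (3451 bp), FXYD2, a regulator of the sodium pump (3423 bp), and the cytochrome P450 gene CYP2AB5 (3339 bp) had H3K27ac at the start with no H3K4me3 overlapping it. FXYD2 and CYP2AB5 had no H3K4me3 peak annotated to them at all. Chosen after their values were seen, the next genes with no overlap were STAM (3297 bp), CGNL1 (3231 bp), WASF2 (3099 bp) and RAPSN (3015 bp).

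By the window of 1000 bp the fiber genes had the highest share of both marks among the lists of 10 genes or more; with overlap counted they had 22 of 23 and the HIF pathway genes 10 of 10. Of 23 fiber structural genes with a promoter peak, 21 had both marks, beside 62.1% of all genes, and 19 of the 22 with promoter H3K4me3 had more of it covered by H3K27ac than the median of all genes. The median covered share was 50.2%, against 26.8% over all 9937 genes with promoter H3K4me3. CRYBB1, a beta-crystallin, had an H3K27ac peak of 7878 bp, wider than its H3K4me3 peak of 5499 bp, and the same H3K27ac peak reaches the promoter of its neighbour CRYBA4. CRYAB, the small heat shock protein alphaB-crystallin, had 5498 and 6087 bp, with 87.5% of H3K4me3 covered. CDH2, the N-cadherin that joins fiber cells, had 5323 and 7279 bp, and 38 H3K27ac peaks were annotated to it. The 2 exceptions were LGSN, a lens protein related to glutamine synthetase, with 17709 bp of H3K4me3 and 4 H3K27ac peaks inside it over 11.4% but none within 1000 bp of the start, and CRYAA.

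CRYAA encodes alphaA-crystallin, the lens chaperone. Its start lay under an H3K27ac peak of 3451 bp (chromosome 1, 111070392 to 111073842) with no H3K4me3 peak. The nearest H3K4me3 peak, 5283 bp wide (111074861 to 111080143), began 3091 bp downstream of the start and lay almost wholly within a second H3K27ac peak of 5721 bp (111074912 to 111080632). In all, 6 H3K27ac peaks covering 15.8 kb and 4 H3K4me3 peaks covering 9.16 kb were annotated to CRYAA. Its state was also H3K27ac alone in the normoxia lists.

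The other lens genes that were named in any case had the opposite layout, a very broad H3K4me3 domain with H3K27ac in pieces. MIP, the fiber water channel aquaporin 0, had 18518 bp of H3K4me3 (chromosome 33, 6917043 to 6935560), of which 6 H3K27ac peaks covered 59.3%, although only 1 of the 6, of 1675 bp, was annotated to MIP. BFSP1, the beaded filament protein filensin, had 18179 bp of H3K4me3 (chromosome 3, 12084008 to 12102186) with 4 H3K27ac peaks over 46.5%, the widest of them, 6165 bp, starting 7245 bp into the gene. PAX6, the transcription factor that heads eye development, had 20562 bp of H3K4me3 (chromosome 5, 5447548 to 5468109) with 10 H3K27ac peaks over 34.9%.

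Lens transcription factors had both marks at 13 of 17 promoters, 76.5% (52.7 to 90.4) beside 62.1% of all genes. Their H3K4me3 was broad, with a median of 11163 bp over all 17, in either state. Over all genes the median was 2658 bp with both marks and 1760.5 bp with H3K4me3 alone. MAF, which activates crystallin genes, had 4658 bp of H3K27ac and 12864 bp of H3K4me3, and 58 H3K27ac peaks were annotated to it. HSF4, the lens heat shock factor, had 3877 and 6891 bp, and SOX1 3761 and 21307 bp. The 4 with H3K4me3 alone were SOX2, MEIS1 (6257 bp), KLF4 (1133 bp) and SIX6 (654 bp).

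**Figure D4:**
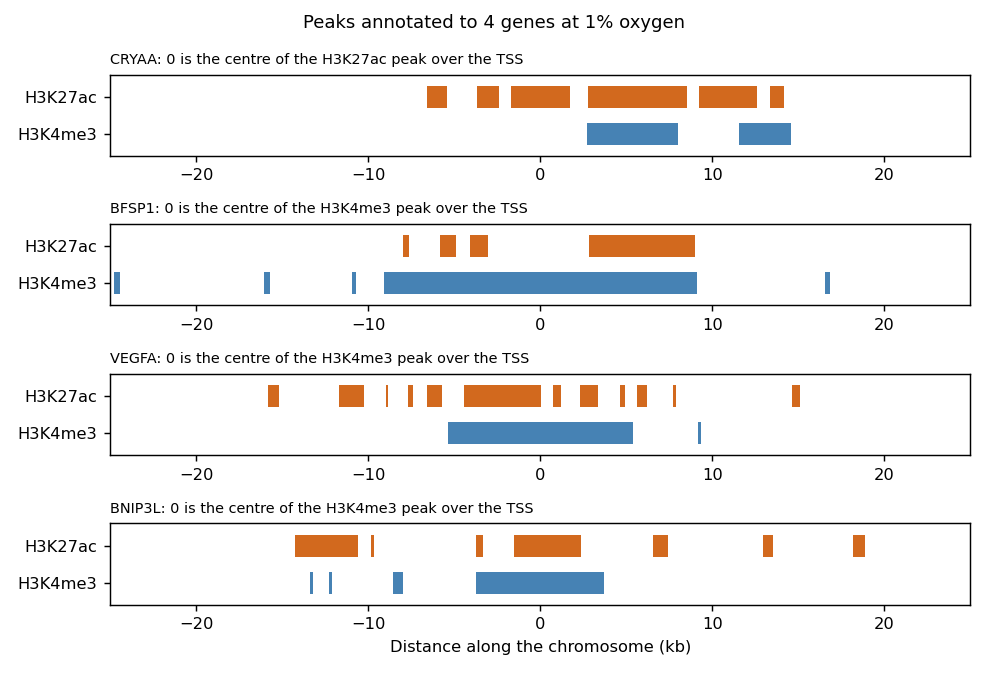
H3K27ac (orange) and H3K4me3 (blue) peaks that the table annotates to CRYAA, BFSP1, VEGFA and BNIP3L at 1% oxygen, drawn to scale along the chromosome (kb from the centre of the widest peak over the TSS; more distant peaks are not drawn). The start of CRYAA lies under H3K27ac of 3451 bp with no H3K4me3, while in the other 3 genes H3K27ac pieces lie in H3K4me3 domains of 18179, 10764 and 7413 bp.

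Genes of the oxygen response were split between the states, as genes at large were. Cells sense oxygen through prolyl hydroxylases of the EGLN family, which mark HIF alpha subunits for destruction by VHL, and in hypoxia HIF binds with ARNT and recruits p300 and CBP to its targets. Of 10 pathway genes with a promoter peak, 8 had both marks, beside 62.1% of all genes, and all 10 did when overlap counted, beside 71.3%. HIF1A had 1881 bp of H3K27ac and 9451 bp of H3K4me3, ARNT 2071 and 4295 bp, and VHL 1990 and 7167 bp. The 2 genes with H3K4me3 alone by the window were the acetyltransferase gene CREBBP (3457 bp) and HIF1AN, an asparagine hydroxylase that restrains HIF (2854 bp).

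Of 40 listed classical HIF targets 30 had a promoter peak. Of these 30, 14 had both marks, 15 H3K4me3 alone and 1 H3K27ac alone (INSIG2, a sterol sensor, 606 bp). This is 46.7% with both (30.2 to 63.9), an interval that includes the 62.1% of all genes. The count went to 21 of 30 when overlap with the promoter peak counted, beside 71.3% of all genes by that rule. A window of 3000 bp gave 23 with both, beside 67.9% of all genes. That window can bring in more of the 33 targets with any peak, so the 23 are not out of 30. The median share of promoter H3K4me3 covered by H3K27ac was 19.9% over 29 targets, and 13 of them were above the median of all genes. In 7 targets an H3K27ac peak overlapped the H3K4me3 promoter peak, although none was annotated to the gene within 1000 bp of its start.

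BNIP3L, a mitophagy receptor by which fiber cells clear mitochondria, is such a gene. Its H3K4me3 peak of 7413 bp (chromosome 22, 675399 to 682811) held 2 H3K27ac peaks over 58.0%, and the near edge of the wider, 3906 bp, was 1199 bp downstream of the start. SLC2A1, the glucose transporter GLUT1, had 9344 bp of H3K4me3 with 2 H3K27ac peaks over 34.1%. PFKFB3, which makes the activator of phosphofructokinase, had 6250 bp of H3K4me3 with none, although 17 H3K27ac peaks were annotated to it elsewhere. PDK1, a kinase that inhibits pyruvate dehydrogenase, likewise had 1948 bp of H3K4me3 (chromosome 7, 17708347 to 17710294) with none and 7 H3K27ac peaks elsewhere. In the normoxia lists PDK1 had both marks at the promoter.

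VEGFA, the angiogenic growth factor, had 10764 bp of H3K4me3 (chromosome 3, 30786661 to 30797424) with 4 H3K27ac peaks over 57.7%, of which only the smallest, 260 bp, was within 1000 bp of the start. In all 14 H3K27ac peaks were annotated to VEGFA, 10 of them without H3K4me3. EGLN3, a hydroxylase that HIF itself induces, had an H3K27ac peak of 679 bp at the upstream edge of 4697 bp of H3K4me3 (chromosome 5, 35937480 to 35942176), sharing 56 bp with it. LDHA, which makes lactate, had an H3K27ac peak of 522 bp (chromosome 5, 12757090 to 12757611) that lay in the gap between an H3K4me3 peak of 3441 bp and the next of 1691 bp and overlapped neither. The targets HK2 and HK1, hexokinases, had 3123 and 4197 bp of H3K27ac, and NDRG1 had 2363 bp. At HK2 no H3K27ac lay on the widest promoter H3K4me3 peak, of 3683 bp, and 93 bp lay on another of 546 bp. CDKN1B, the cell cycle inhibitor p27 of fiber differentiation, had 3144 bp of H3K27ac within 7633 bp of H3K4me3 (chromosome 1, 72099126 to 72106758), and 10 of its 12 H3K27ac peaks lay outside H3K4me3.

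Of 16 glycolysis genes 11 had both marks, 68.8% beside 62.1% of all genes, and 15 did when overlap counted, beside 71.3% of all genes. PFKP, a phosphofructokinase, had 2082 bp of H3K27ac and 3260 bp of H3K4me3. ENO1, an enolase, had 5964 bp of H3K4me3 with no H3K27ac on that peak, and GPI, glucose phosphate isomerase, 4770 bp with 11.8% covered. Respiratory chain genes had both marks at 21 of 26 promoters, 80.8% beside the same 62.1%, and their H3K4me3 had a median width of 2218 bp, of which a median of 54.1% was covered. NDUFS1 of complex I had 3720 bp of H3K27ac and 4499 bp of H3K4me3, SDHA of complex II 2943 and 2754 bp, and NDUFA1 3053 and 2548 bp. The exceptions included ATP5PB (3746 bp of H3K4me3), NDUFB5 (2508 bp) and UQCRQ (1729 bp), all with H3K4me3 alone by the window. H3K27ac covered 10.7% of the ATP5PB peak and touched neither the NDUFB5 nor the UQCRQ peak. With overlap counted 22 of the 26 respiratory chain genes had both marks, beside 71.3% of all genes.

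Autophagy and mitophagy genes, which act in the clearance of organelles, had both marks at 28 of 37 promoters, 75.7% (59.9 to 86.6) beside 62.1% of all genes. WIPI1, a phosphoinositide reader of the forming autophagosome, had 4797 and 10048 bp of H3K27ac and H3K4me3, the receptor NBR1 3913 and 5133 bp, and WIPI2 2955 and 3080 bp. Beside BNIP3L, its relative BNIP3 (4291 bp) and the initiation factor BECN1 (2406 bp) had H3K4me3 alone, and no H3K27ac touched their promoter peaks. Cytosolic ribosomal protein genes had both marks at 54 of 65 promoters (83.1%), beside 62.1% of all genes. With overlap counted 58 had both, beside 71.3% of all genes. The median covered share was 50.2%, against 26.8% over all genes with promoter H3K4me3. RPL7 had 6772 and 7914 bp and RPL15 5088 and 5432 bp. By the window RPL23 (6209 bp), RPS27 (5908 bp) and RPS6 (4027 bp) had H3K4me3 alone and FAU H3K27ac alone (642 bp). H3K27ac covered 11.9% of the RPS27 and 22.9% of the RPS6 peak and did not touch the RPL23 peak.

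Immediate early genes had the lowest share of both marks among the lists of 10 genes or more, by the window and with overlap counted. These genes are switched on within minutes of a stimulus from promoters held ready. Of 32 listed genes 25 had a promoter peak of either mark. All 25 had promoter H3K4me3, as did 9937 of all 10530 genes with a promoter peak. By the window 7 had both marks (28.0%) and 18 H3K4me3 alone (72.0%), beside 62.1% and 32.3% of all genes. With overlap counted 14 had both, beside 71.3% of all genes. The median covered share was 3.89%, against 26.8% over all genes, and 2 of the 25 were above the latter. Their H3K4me3 was not narrow, with a median of 3166 bp. MYC, a growth regulator, had 2023 bp of H3K27ac in 7726 bp of H3K4me3, and the ERK phosphatases DUSP4 and DUSP6 had 1025 and 985 bp of H3K27ac. ATF3 (7572 bp of H3K4me3) had none, the AP-1 subunit FOS had 7011 bp of H3K4me3 with 165 bp of H3K27ac on it, and the phosphatase gene DUSP1 6230 bp with 22.1% covered.

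Genes listed for placing, reading and removing the marks carried both of them for the most part, as did 62.1% of all genes. The intervals of both lists included that share. For H3K27ac writers, readers and erasers 15 of 19 had both marks, 78.9% (56.7 to 91.5). Among them were the deacetylase HDAC2 (2883 and 5390 bp), the acetyl reader BRD3 (2767 and 4124 bp) and the mitochondrial deacetylase SIRT3 (2364 and 2620 bp). BRD2 (6154 bp) and SIRT1 (5203 bp) had H3K4me3 alone at the window, and H3K27ac covered 25.7% and 34.9% of these peaks. For H3K4 methylation 12 of 14 had both marks, 85.7% (60.1 to 96.0). Among them were the methyltransferase genes SETD1A (5208 and 11106 bp) and KMT2D (3243 and 3738 bp), and also KMT2E (3053 and 12323 bp). The demethylase KDM1A had H3K4me3 alone at the window (1870 bp), and H3K27ac covered 44.1% of this peak. The methyltransferase KMT2C had H3K27ac alone (980 bp).

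**Figure D5:**
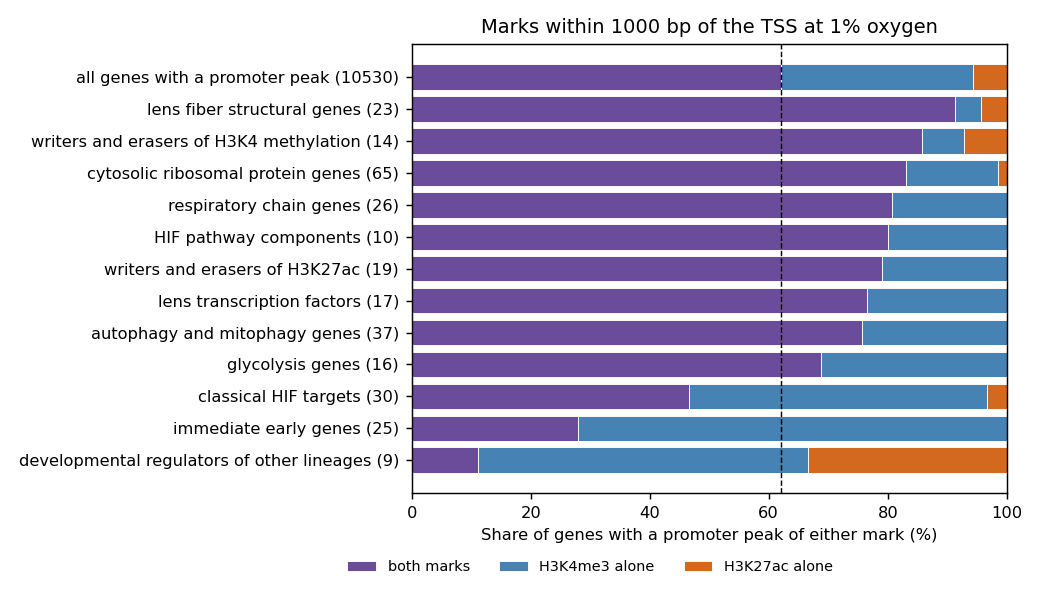
Share (%) of genes with both marks, H3K4me3 alone or H3K27ac alone within 1000 bp of a TSS at 1% oxygen, for all 10530 genes with a promoter peak and for the gene lists with at least 9 such genes (number in brackets); the dashed line marks the 62.1% of all genes with both marks. Fiber structural genes are at the top with 21 of 23, and immediate early genes (7 of 25) and regulators of other lineages (1 of 9) at the bottom.

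Genes that direct other tissues were mostly unmarked at their promoters but not free of either mark. Of 56 developmental regulators of other lineages in the table, 47 had no promoter peak at 1% oxygen, while 74.7% of all 14100 genes had one. Somewhere in or near the gene, 47 of the 56 had an annotated H3K27ac peak, beside 87.1% of all genes, and 31 an H3K4me3 peak, beside 84.8%. Of the 9 with a promoter peak, 1 had both marks within 1000 bp of the start, beside 62.1% of all genes. It was SOX9, a regulator of cartilage and neural crest (924 and 2007 bp). MSX1 (8807 bp) and BARX2 (1058 bp) were among the 5 that had H3K4me3 alone, beside 32.3% of all genes. RUNX2 (1501 bp), DLX5 (166 bp) and TBX3 (165 bp) had H3K27ac alone, beside 5.63% of all genes. No H3K27ac peak at 1% oxygen was narrower than 165 bp, so the DLX5 and TBX3 peaks are among the narrowest listed. With overlap counted 3 of the 9 had both marks, beside 71.3% of all genes by that rule. MSX1, with 17.7% of its H3K4me3 peak under H3K27ac, and RUNX2 were among them. A window of 3000 bp, which can bring in more of the 56 genes, gave 5 genes with both, beside 67.9% of all genes.

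Genes listed as markers of other cells near the fiber mass were marked in part. Of 4 genes listed for lens epithelium with a promoter peak, SPARC and GJA1 had both marks, with 4566 and 7636 bp of H3K4me3. JAG1 had 13722 bp of H3K4me3 with no H3K27ac within 1000 bp of the start but 4 H3K27ac peaks over 31.4% of it. PDPN had 180 bp of H3K27ac alone. Whether the listed genes are confined to the epithelium was not tested. Of other markers with a promoter peak, both marks were found at 2 of 4 for retina and neurons (ELAVL4 and NEFL). They were found at 1 of 2 for blood and endothelium (LMO2, with 11056 bp of H3K4me3), 2 of 3 for mesenchyme (PDGFRA and DCN) and at the pigment epithelium marker MITF. This stands beside 62.1% of all genes. Of markers with any peak in the 4 lists, 3 of 7 retina and neuron and 5 of 7 blood and endothelium markers had no promoter peak. The same held for 2 of 5 mesenchyme, 3 of 4 pigment epithelium and 1 of 5 lens epithelium markers, while 74.7% of all genes had one. Whether these genes are also active in lens fiber cells was not measured. The part of other cells in the peaks of these lists was not tested.

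Over all classes the widest H3K27ac peaks without H3K4me3 were ranked among those annotated to a gene with a symbol. First were peaks annotated to the mitochondrial ribosomal protein gene MRPS23 (7215 bp, chromosome 19, 8996170 to 9003384) and the channel gene TRPM3 (6809 bp, chromosome Z, 35253619 to 35260427). POLR1C, which encodes an RNA polymerase subunit (6512 bp), and the desmosomal protein gene PKP4 (6259 bp) followed. Next were GCLM, a subunit of the enzyme that limits glutathione synthesis, and the receptor phosphatase gene PTPRS (6048 bp each). The MRPS23, TRPM3 and PTPRS peaks lay 95374, 89926 and 71955 bp from the annotated TSS. Those of POLR1C, PKP4 and GCLM lay 3486, 17271 and 18927 bp from it. Which gene each peak acts on was not tested. The widest H3K4me3 peaks without H3K27ac were annotated to PGM1, phosphoglucomutase (12187 bp in an exon, chromosome 8, 28219252 to 28231438), NCOA2, ARIH1, CADM3 and CTNNA2, an alpha-catenin (9108 bp in an intron). The CTNNA2 peak lay 62299 bp from the annotated TSS. H3K27ac peaks of 8847, 8511 and 6543 bp at 3 loci without a symbol, and an H3K4me3 peak of 22321 bp at 1 such locus, are left out of these ranks.

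H3K27ac without H3K4me3 was spread thinly over genes, with a median of 2 such peaks over the 9791 genes that had any, and 10 or more at 375 genes. The genes with the most were FGFRL1, a decoy-type fibroblast growth factor receptor (37 peaks), KIAA1217 (36), the chromatin remodelling subunit ARID1B (33), the scaffold MAGI2 (33) and TBL1X, a part of the NCoR corepressor complex (32). These are plain counts of annotated peaks, and the part of gene length in them was not tested. All 5 genes had both marks at the promoter. At FGFRL1 the H3K27ac peaks without H3K4me3 covered 45.8 kb, and an H3K4me3 domain of 12374 bp at its promoter had 59.8% of its length under H3K27ac. ARID1B had its wider H3K27ac promoter peak, 2758 bp (chromosome 3, 51461561 to 51464318), apart from its H3K4me3 promoter peak of 320 bp (51481102 to 51481421), which lay wholly under another H3K27ac peak. Genes with both marks had a median of 2 H3K27ac peaks annotated away from the promoter, and genes with H3K4me3 alone or H3K27ac alone a median of 1.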

How the data were processed

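CUT&RUN peaks of H3K27ac and H3K4me3 from lens fiber cells were taken from 1 deposited table. Its columns, per the file headers, hold the position of a peak, the gene and transcript it is annotated to, its distance to the TSS and its class. These values are of no expression or signal unit: the deposited starts, ends and distances are positions and lengths in bp. Per the submitters' processing notes STAR, DESeq2, MACS2 and ChIPseeker were used with build galGal6. Their versions, settings and roles, and whether replicates were pooled, are not given in the sources used here. Libraries were grouped by their labels.

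The hypoxia lists held 47912 lines for H3K27ac and 31656 for H3K4me3, which repeat a peak for each transcript. Each interval was counted once, and starts were made 1-based. Overlap, shares and Wilson intervals were computed in Python 3.11.15 with pandas 2.3.3. Overlap counts equalled those of bedtools 2.31.1, and the functions were tested on simulated data. Bases are those of each peak, summed. No test was run.

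The comparison, its members and the 17 gene lists were chosen with earlier results of these data known. Counts per gene list leave out listed genes that have no peak under their symbol. Genes always named were CRYAA, MIP, BFSP1, PAX6, VEGFA, EGLN3, BNIP3L, PDK1, LDHA and CDKN1B. The others were the 8 widest per promoter state, up to 3 per list and state, the 5 widest peaks without the other mark and the 5 genes with the most H3K27ac peaks without H3K4me3, with loci lacking a symbol skipped. Some genes chosen in this way are not reported here. SIX6 was named to complete a count. The share of H3K4me3 bases covered per list was added after the lists had been compared. Alternatives covered peak width, list length, the overlap rule and the promoter window. Promoter sequences were not analysed here. The read depth is unknown.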

Additional observations from a re-analysis of the deposited data

How the results depend on the processing

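Peaks with the other mark stayed the wider and the closer to a TSS under every setting for which this was computed, but 46 of 53 alternative values of the main results moved beyond their counting intervals, and where a cause is not given by the setting itself it was not tested. With peaks of at least 500 bp only, 41.8% of H3K27ac peaks overlapped H3K4me3; peaks with the other mark exceeded those without by 43.2 percentage points (H3K27ac) and 13.8 (H3K4me3) in the share within 1 kb of a TSS and by 1.51 and 1.95 times in median width; genes had both marks in 51.3%, H3K4me3 alone in 44.7% and H3K27ac alone in 3.96%, and the median gap was 11.5 kb. With the H3K27ac list reduced to the length of the other, overlap was 47.3% and 41.8%, the H3K4me3 excess near a TSS 21.6 points, the width ratios 1.52 and 3.15, and the states 49.8%, 47.1% and 3.10%. Overlap of at least 50% of the shorter peak gave 31.9% and 47.9%, excesses of 39.3 and 28.0 points, and 19.1% in the narrowest H3K4me3 promoter class. Overlap of at least 50% of both peaks gave 7.85% and 14.4%, excesses of 36.3 and 16.2 points and ratios of 2.70 and 2.02. Peaks within 1000 bp counted as shared gave 42.8% and 62.6%, 33.7 and 17.4 points, and ratios of 1.75 and 2.79. Merging neighbours within 1000 bp first gave 35.1% and 54.6%. A promoter window of 3000 bp gave 67.9% of genes with both marks, 23.6% with H3K4me3 alone and 8.50% with H3K27ac alone, and a median covered share of 41.5%. Any annotated peak gave 76.0%, 10.8% and 13.1%, so that H3K27ac alone became more frequent than H3K4me3 alone. Overlap with the other mark's promoter peak counted gave 71.3%, 23.6% and 5.02%. Of 34 counts per gene list 28 stayed within 1.5 times and 6 did not, in classical HIF targets, immediate early genes, regulators of other lineages and lens epithelium markers, each upward. No paired analysis was possible because the table holds 1 list per mark and condition with no value per library, and no replicate could be left out for the same reason. The planned comparison of promoter sequences and its alternative were not run. With unknown depth, a mark that is not listed at a promoter was not called there, and may be present below the authors' threshold.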

Other observations

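The share of H3K27ac peaks that overlapped H3K4me3 differed between chromosomes. At 1% oxygen 31.8% of 7163 H3K27ac peaks on chromosome 1 overlapped H3K4me3, 31.4% of 5301 on chromosome 2 and 32.7% of 2198 on chromosome Z. The share was 56.3% of 496 on chromosome 28, 58.4% of 243 on chromosome 25, 70.9% of 103 on chromosome 30 and 76.5% of 51 on chromosome 32. These 4 are among the small chromosomes of the chick and had some of the highest shares. Other small chromosomes were lower, such as chromosome 24 with 38.0% of 405 and chromosome 21 with 42.4% of 531. For H3K4me3 the share overlapped was 53.7% on chromosome 1, 51.4% on chromosome 2 and 51.5% on chromosome Z, against 55.4% on chromosome 28, 59.1% on chromosome 25, 57.4% on chromosome 30 and 59.6% on chromosome 32. The number of H3K27ac peaks per H3K4me3 peak was 2.07 on chromosome 1 and 0.896 on chromosome 30. On chromosome W, with 16 H3K27ac and 50 H3K4me3 peaks, 16.0% (8.34 to 28.5) of H3K4me3 peaks overlapped H3K27ac.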
